A study of Homo sapiens with 36 samples.

Results

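The 10 genes described here encode receptor chains for cytokines and interferons: IL6ST, IL6R, LIFR and OSMR of the gp130 family, IFNGR1, IFNGR2 and IFNAR1 of the interferon receptors, IL1R1, and IL13RA1 and IL4R of the IL-4/IL-13 system. They were read from the array probe sets (transcript clusters) that carry the gene as their single symbol, the cluster with the highest mean over all 36 arrays being taken where a gene had several. Each of the 10 had 1 such cluster, so the level decided nothing. The members are 10 of the 18417 genes that the arrays name in this way, over 19460 of the 33297 transcript clusters. The list was drawn up with earlier results of these arrays known, so the counts below describe these 10 genes and are no evidence about cytokine receptors as a class.

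All samples were A549 cells, a human lung adenocarcinoma line of alveolar epithelial origin. Before each experiment the cells were kept without serum, and cigarette smoke extract (CSE) at 1%, 5% or 10% was then given in DMEM with 1% fetal bovine serum, the CSE medium being renewed every 24 h and the cells passaged each week. Control cells were grown without CSE. Exposures of 1, 3 and 5 weeks with 4 conditions each gave 12 groups of 3 biological replicates of this 1 line, and RNA of every sample was hybridised to 1 Affymetrix Human Gene 1.0 ST array. Levels are log2 values after RMA, a procedure that gives all arrays the same overall scale, so a difference of 1 is a doubling and only changes relative to the other transcripts can be seen. A transcript level says nothing of receptor protein at the cell surface, and in a culture as a whole a change in every cell and a change in the share of expressing cells cannot be told apart.

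Receptors of these families work as assemblies of several chains. IL6ST (gp130) is the shared signalling chain: it pairs with IL6R for IL-6, with LIFR for leukemia inhibitory factor and with OSMR for oncostatin M, and JAK kinases bound to it activate STAT3. IFNGR1 binds interferon gamma and IFNGR2 brings the second JAK to the complex, whereas IFNAR1 with IFNAR2 receives the type I interferons. IL1R1 with IL1RAP signals for IL-1 through MYD88 and IRAK kinases, and IL4R joins either the common gamma chain or IL13RA1 to receive IL-4 and IL-13 and activate STAT6. In airway and alveolar epithelium these receptors couple inflammation to acute phase, antiviral and mucus responses.

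The start regions of IL6ST, IFNGR1, IFNAR1 and IL1R1 are shown because these 4 members had log2 differences above 1 from control at 5 weeks. The sequences are the 250 bases before the most upstream start that RefSeq (GRCh38.p14) lists for each gene. They are written 5′ to 3′ on the strand of the gene, with matches to any of 5 searched motifs in capitals. Matches at any other start of a gene are not given.
IL6ST, chr5:55994964-55995213, minus strand: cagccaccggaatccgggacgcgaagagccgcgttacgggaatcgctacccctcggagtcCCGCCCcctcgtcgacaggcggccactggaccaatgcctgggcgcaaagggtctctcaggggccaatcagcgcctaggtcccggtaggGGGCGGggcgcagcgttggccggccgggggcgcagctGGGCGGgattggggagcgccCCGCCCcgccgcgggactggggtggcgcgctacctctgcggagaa
IFNGR1, chr6:137219386-137219635, minus strand: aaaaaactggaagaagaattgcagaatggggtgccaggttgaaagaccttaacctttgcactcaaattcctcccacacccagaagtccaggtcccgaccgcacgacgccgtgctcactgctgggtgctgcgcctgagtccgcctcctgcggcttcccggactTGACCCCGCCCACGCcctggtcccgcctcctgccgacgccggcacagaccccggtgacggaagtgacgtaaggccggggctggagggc
IFNAR1, chr21:33324145-33324394, plus strand: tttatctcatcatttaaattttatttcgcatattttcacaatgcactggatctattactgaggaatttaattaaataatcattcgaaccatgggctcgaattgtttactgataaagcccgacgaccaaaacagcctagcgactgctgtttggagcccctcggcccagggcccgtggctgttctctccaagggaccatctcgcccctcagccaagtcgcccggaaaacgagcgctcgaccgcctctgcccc
IL1R1, chr2:102104354-102104603, plus strand: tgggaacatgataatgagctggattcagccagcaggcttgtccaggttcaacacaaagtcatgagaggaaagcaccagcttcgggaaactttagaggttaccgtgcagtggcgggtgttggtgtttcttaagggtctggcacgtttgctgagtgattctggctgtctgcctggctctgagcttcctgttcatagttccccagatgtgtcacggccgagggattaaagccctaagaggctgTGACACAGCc
The motifs were searched on both strands: GCGTG, the core bound by the aryl hydrocarbon receptor; TGACNNNGC, a core bound by NRF2; TGANTCA, bound by AP-1; TTCNNNGAA, the palindrome bound by STAT factors; and GGGCGG, bound by SP1. Of 35116 windows of 250 bases before the starts in the RefSeq table, 32.2% held GCGTG, 10.9% held TGACNNNGC, 6.57% held TGANTCA, 6.57% held TTCNNNGAA and 42.6% held GGGCGG. IFNGR1 had 1 match to TGACNNNGC, 1 to GCGTG and 1 to GGGCGG, and the last overlaps both of the others. IL6ST had 4 matches to GGGCGG and to no other motif, IL1R1 had 1 to TGACNNNGC alone, and IFNAR1 had none of the 5. The 4 start regions thus hold no motif of the 5 in common. All 10 members were matched in the table. Of the other members OSMR held GGGCGG 3 times, IFNGR2 5 times, IL13RA1 4 times and IL4R 4 times, LIFR held 1 TTCNNNGAA, IFNGR2 also held 1 GCGTG, and IL6R held none. A match is a description of the letters and no evidence of binding.

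Of the cell type markers, all 5 of epithelium (EPCAM, CDH1, KRT8, KRT18 and KRT19) lay above the median of named genes, KRT8 at the 99.9th percentile. Of 8 alveolar type II markers measured, 1 (ABCA3) lay above that median, and the surfactant genes SFTPB and SFTPC lay at the 29.9th and 29.0th percentiles. Of 5 alveolar type I markers 1 lay above it, CAV1, at the 97.8th percentile, and of 5 fibroblast markers 1, COL1A1, at the 56.6th. None of 4 leukocyte and none of 5 endothelial markers lay above it, and PTPRC, which marks leukocytes, was at the 2.08th percentile. The 3 control arrays of 5 weeks stood apart from the other 33: their values spread less, with an SD of 2.15 to 2.21 against 2.25 to 2.31. On principal component 1, the main axis of variation over all clusters, they lay at -111, -74.6 and -74.6. Control replicate 3 of 1 week was the array nearest to them there, at -61.2, with replicates 1 and 2 at -6.38 and -23.8. The 1-week calls lost without it are given below. The titles of the 5-week control arrays give 5 weeks, but their descriptions, and the source names of 2 of them, give 3 weeks. The titles were followed. Each comparison at 5 weeks was therefore also made against the 6 control arrays of 1 and 3 weeks. Those controls had less time in culture, so in these values exposure and time in culture cannot be told apart. In the comparisons with the 5-week controls the median of all clusters was -0.14, -0.17 and -0.17 at 1%, 5% and 10% CSE, so values slightly below 0 were common there. The 5 epithelial markers were all lower with 5% and with 10% CSE at 5 weeks against the controls of 1 and 3 weeks, with medians of -0.30 and -0.52, and their part in the receptor values was not tested.

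**Figure D1:**
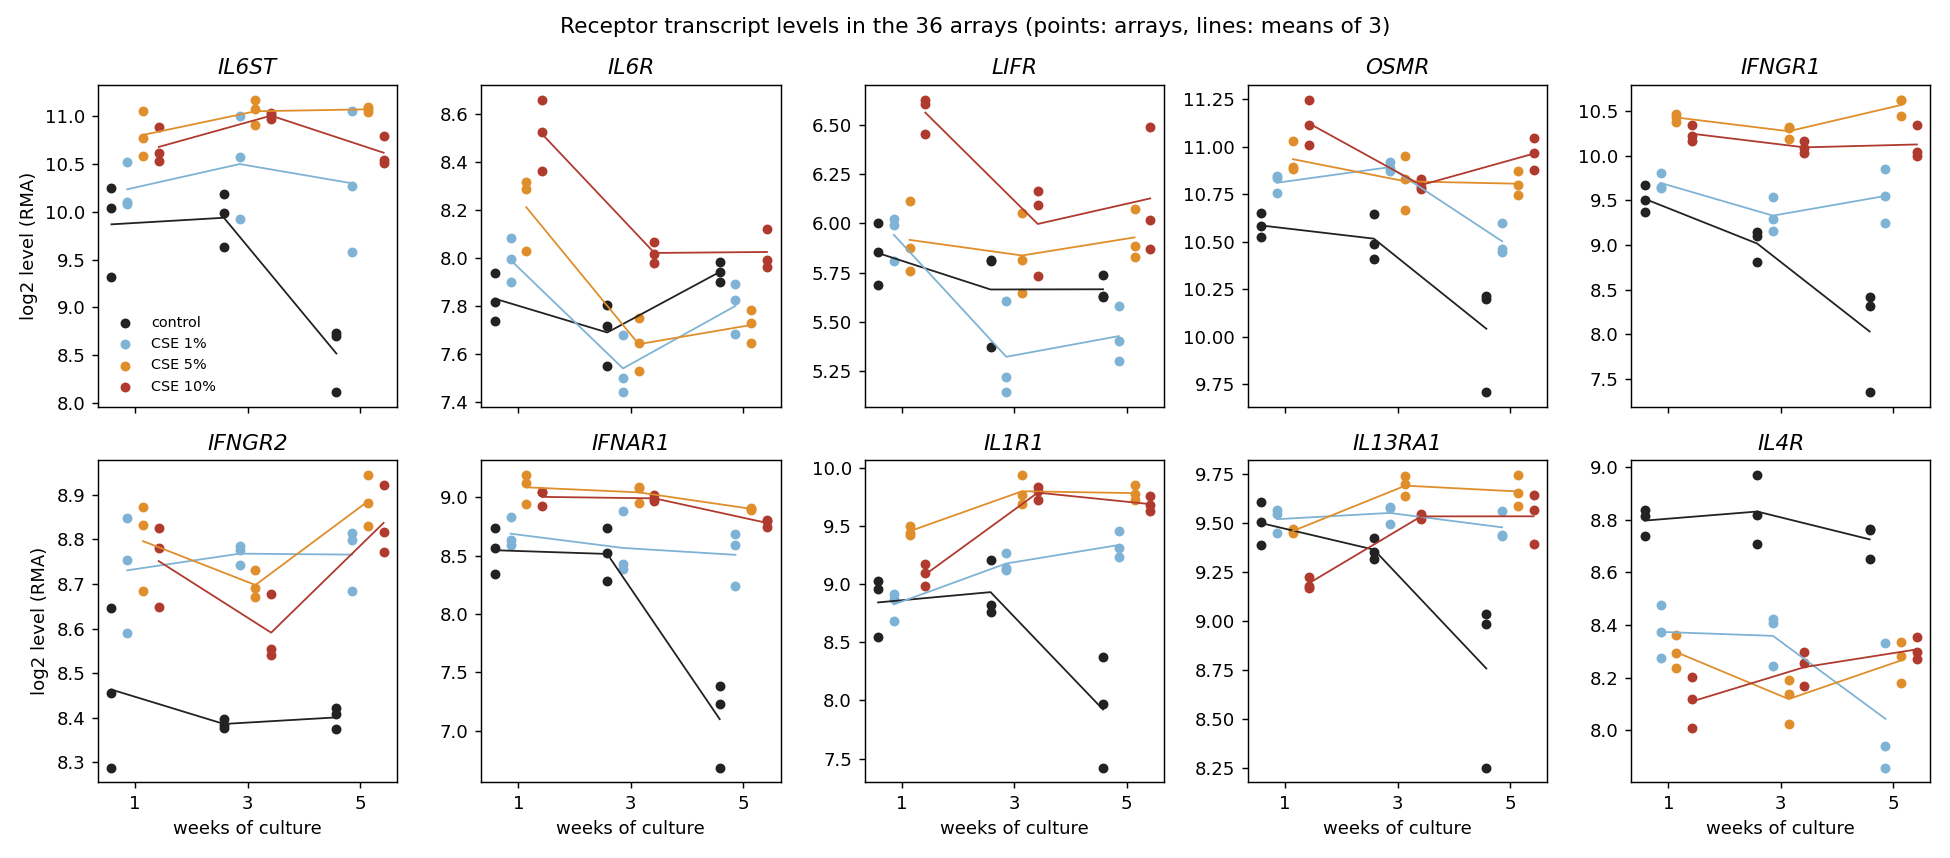
Levels of the 10 receptor transcripts (log2, RMA) against the week of culture, 1 panel per gene with its own axis range, points for the 36 arrays and lines joining the means of 3. The control points of 5 weeks lie below every other array for IL6ST, OSMR, IFNGR1, IFNAR1, IL1R1 and IL13RA1, and the control points lie above the exposed ones at every week for IL4R.

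With 5% CSE 7 of the 10 receptors were higher and 1, IL4R, was lower than control at 1 week, with LIFR and IL13RA1 not past the test. Called values had an adjusted p under 0.05 in limma, corrected over all 33297 clusters, of which 5.99% were higher and 4.84% lower in this comparison. At 10% CSE 7 were higher and 1 lower at 1 week, beside 8.27% and 8.44% of all clusters. Those higher came to 5 or 6 when any 1 array was left out. At 1% CSE 1 was higher and 1 lower, beside 3.41% and 1.90%. The median difference of the 10 members was 0.15, 0.36 and 0.50 on the log2 scale at 1%, 5% and 10%, while that of all clusters lay between -0.03 and -0.02. The 7 members higher with 5% CSE came to 3 without control replicate 3 and to 4 without CSE replicate 1, and the 1 with 1% CSE to 0 without control replicate 1 or 2 or CSE replicate 2 or 3.

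At 3 weeks 2, 7 and 6 members were higher at 1%, 5% and 10% CSE and 1 was lower at each, IL4R. The share of all clusters that was higher was 5.67%, 9.70% and 14.0%, and that lower was 5.81%, 9.93% and 12.5%. The 7 became 4 without control replicate 2, and the 2 became 1 without control replicate 3. The 6 with 10% CSE came to 4 to 6 when 1 array was left out. Wherever arrays of 5 weeks enter, IL6ST and IFNGR1 are left out of the counts, since the study selected them on those arrays, and their values are given without a test. Of the other 8 members 5, 5 and 6 were higher and 1, 2 and 1 lower at 5 weeks (IL4R at each concentration, and IL6R at 5%). The background was also high: 20.3%, 23.0% and 21.9% of all clusters were higher and 33.5%, 40.3% and 39.6% lower. Against the controls of 1 and 3 weeks the members higher among these 8 came to 2, 4 and 5, with 7.86%, 13.1% and 15.0% of all clusters, and IL4R alone was lower at each concentration, with 7.43%, 13.0% and 16.0%. By a fold change rule like that of the study, a log2 difference beyond 1 with B (the log odds of a difference) above 0, no member was higher at 1 week, IFNGR1 alone was higher at 3 weeks (with 5% and 10% CSE), and 2 of the 8 were higher at each concentration at 5 weeks (IFNAR1 and IL1R1), while none was lower. Of all clusters 0.243%, 0.411% and 0.691% were higher by it at 1 week, with 0.456%, 1.20% and 1.45% for the 3-week and 3.22%, 7.14% and 7.02% for the 5-week comparisons, and in the same order 0.0811%, 0.484% and 0.829%, 0.291%, 0.544% and 1.06%, and 0.805%, 2.02% and 2.06% were lower.

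**Figure D2:**
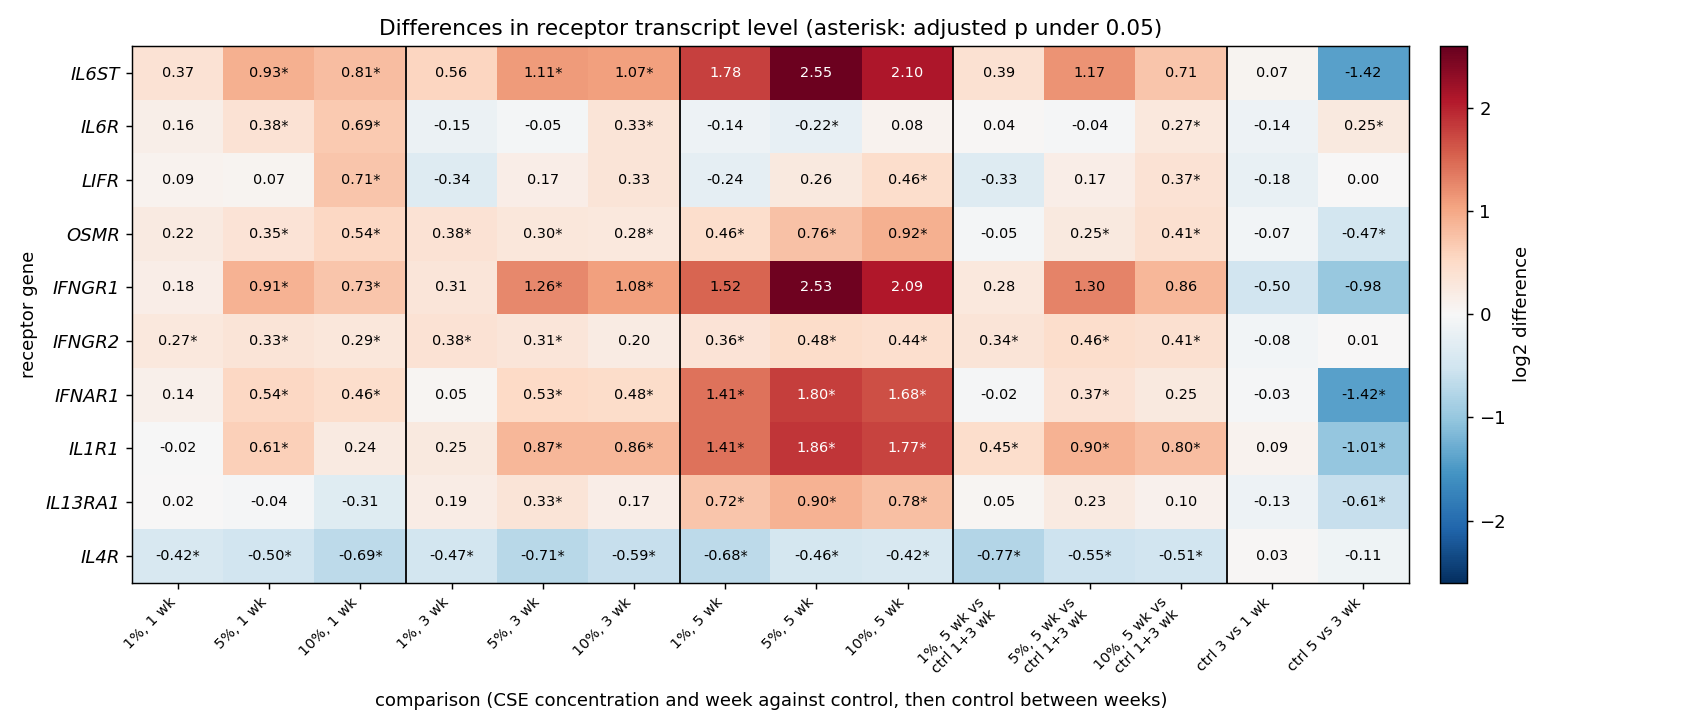
Log2 difference in level for the 10 receptors (lines) in 14 comparisons (columns): CSE against control of the same week, CSE at 5 weeks against the controls of 1 and 3 weeks, and control between weeks. Asterisks mark an adjusted p under 0.05 and are left off IL6ST and IFNGR1 wherever 5-week arrays enter. IL4R is negative in all 12 comparisons with control, from -0.42 to -0.77, and the values of IL6ST and IFNGR1 at 5% CSE and 5 weeks, 2.55 and 2.53, shrink to 1.17 and 1.30 with the other controls.

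IL6ST, the shared gp130 chain, was higher with 5% and 10% CSE at 1 and 3 weeks, with more spread among replicates than the other members (median SD within a group 0.24, against 0.06 to 0.17). In control cells it measured 10.25, 10.04 and 9.31 at 1 week and 9.99, 9.63 and 10.19 at 3 weeks. With 5% CSE it measured 10.77, 10.59 and 11.05 at 1 week and 11.17, 10.90 and 11.07 at 3 weeks. At both weeks all exposed arrays lay above all control arrays. It was 1.91-fold higher at 1 week (log2 difference 0.93, SE 0.27, adjusted p = 0.0207) and 2.16-fold higher at 3 weeks (1.11, SE 0.27, adjusted p = 0.00305). With 10% CSE the difference was 0.81 at 1 week (adjusted p = 0.0364) and 1.07 at 3 weeks (adjusted p = 0.00327), and with 1% CSE the arrays overlapped those of the controls (0.37 and 0.56, neither past the test, though the latter passed without CSE replicate 3, 0.85, adjusted p = 0.0466). The 1-week call of 5% CSE was lost without control replicate 3 (0.66, adjusted p = 0.195), CSE replicate 1 (0.95, 0.0570) or CSE replicate 3 (0.81, 0.101). That of 10% CSE was lost without control replicate 3 (0.53, adjusted p = 0.280), CSE replicate 2 (0.84, 0.0750) or CSE replicate 3 (0.70, 0.145).

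At 5 weeks IL6ST measured 8.12, 8.74 and 8.70 in control cells, below each of the other 33 arrays, the lowest of which was 9.31. It measured 11.09, 11.04 and 11.07 with 5% CSE, the group with the highest mean. The differences from the 5-week control were 1.78, 2.55 and 2.10 at 1%, 5% and 10% CSE, or 3.43-, 5.85- and 4.28-fold. Set against the controls of 1 and 3 weeks they were 0.39, 1.17 and 0.71. The level with 5% CSE moved by 0.02 between 3 and 5 weeks, while that of the control moved by -1.42.

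OSMR, the oncostatin M chain, was higher than control in 8 of 9 comparisons, by smaller amounts than IL6ST and with less spread. In control cells it measured 10.65, 10.58 and 10.53 at 1 week, and with 10% CSE 11.12, 11.25 and 11.01, so that all exposed arrays were above. The difference at 1 week was 0.35 with 5% CSE (SE 0.10, adjusted p = 0.0181) and 0.54 with 10% CSE (adjusted p = 0.000162), and at 3 weeks it was 0.38, 0.30 and 0.28 at 1%, 5% and 10% (adjusted p = 0.00968, 0.0287 and 0.0328). These values lie near the threshold: at 5% CSE and 1 week the call was lost without control replicate 3 (adjusted p = 0.0841) or CSE replicate 1 (0.108). At 3 weeks it was lost at 1% without control replicate 3 (adjusted p = 0.0642), at 5% without control replicate 2 or 3 or CSE replicate 1 or 3 (0.0791 to 0.171), and at 10% without control replicate 2 or 3 or any 1 CSE replicate (0.0581 to 0.139). At 5 weeks the control arrays measured 9.71, 10.22 and 10.20, below all other 33. The differences there were 0.46, 0.76 and 0.92 (adjusted p = 0.000432, 3.37e-07 and 1.44e-08), and against the other controls -0.05, 0.25 and 0.41 (adjusted p = 0.783, 0.0267 and 0.000426).

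IL6R, the IL-6 binding chain, was higher than control with 5% and 10% CSE at 1 week and with 10% CSE alone at 3 weeks. It measured 7.74, 7.82 and 7.94 in control cells at 1 week, 8.32, 8.29 and 8.03 with 5% CSE and 8.53, 8.66 and 8.36 with 10% CSE, with no overlap between either exposed group and the control. The differences were 0.38 (SE 0.09, adjusted p = 0.00473) and 0.69 (adjusted p = 1.52e-06). Between 1 and 3 weeks IL6R fell in cells with 1%, 5% and 10% CSE, by 0.45, 0.57 and 0.50 (adjusted p = 0.000500, 4.5e-05 and 0.000141), while the change of -0.14 in control cells did not pass (adjusted p = 0.371). At 3 weeks the difference with 10% CSE was 0.33 (adjusted p = 0.00674), a call lost without control replicate 3 (0.26, adjusted p = 0.0561). At 5 weeks the values were -0.14, -0.22 and 0.08, of which that at 5% CSE passed (adjusted p = 0.0360). That call was lost without control replicate 1 or 2 or CSE replicate 1 or 3 (adjusted p = 0.0617 to 0.126) and against the other controls (-0.04), where instead 10% CSE was higher (0.27, adjusted p = 0.0109).

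LIFR, which pairs with IL6ST for leukemia inhibitory factor, passed the test against control only with 10% CSE. Its cluster was the 1 member outside the 60% of clusters with the highest mean level. With 10% CSE at 1 week it measured 6.61, 6.63 and 6.45, against 6.00, 5.86 and 5.69 in control cells, a difference of 0.71 (SE 0.15, adjusted p = 0.000989). The arrays of 1% and 5% CSE overlapped the controls at that week (0.09 and 0.07). LIFR with 10% CSE then fell by 0.56 to 3 weeks (adjusted p = 0.00622), where its difference from control, 0.33, did not pass (adjusted p = 0.111) unless CSE replicate 2 was left out (0.46, adjusted p = 0.0415) or arrays were centred on housekeeping genes (0.54, adjusted p = 0.00552). At 5 weeks 10% CSE was again higher, by 0.46 (adjusted p = 0.0106) or 0.37 against the other controls (adjusted p = 0.0324) with arrays at 6.49, 6.02 and 5.87. Without CSE replicate 1, the highest of these, the difference from the 5-week control was 0.28 (adjusted p = 0.124). With 5% CSE at 5 weeks the difference was 0.26 and did not pass, but it was 0.52 under cyclic loess scaling (adjusted p = 0.00968) and 0.39 when centred on housekeeping genes (adjusted p = 0.0331). The values with 1% CSE lay below control, by -0.34 at 3 weeks and -0.24 at 5 weeks, neither past the test.

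IFNGR1, the ligand binding chain for interferon gamma, was higher with 5% and 10% CSE at 1 and 3 weeks in every exposed array than in any control array of that week. It measured 9.67, 9.51 and 9.37 in control cells at 1 week and 9.14, 8.80 and 9.10 at 3 weeks. With 5% CSE it measured 10.44, 10.37 and 10.47 at 1 week and 10.31, 10.18 and 10.32 at 3 weeks. The difference was 0.91, or 1.88-fold, at 1 week (SE 0.18, adjusted p = 0.000525) and 1.26, or 2.39-fold, at 3 weeks (adjusted p = 3.75e-06). With 10% CSE it was 0.73 (adjusted p = 0.00339) and 1.08 (adjusted p = 2.64e-05), and with 1% CSE 0.18 and 0.31, neither past the test. None of these calls was lost when any 1 array was left out.

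At 5 weeks IFNGR1 measured 7.35, 8.42 and 8.32 in control cells and 10.45, 10.63 and 10.62 with 5% CSE. The differences were 1.52, 2.53 and 2.09 at 1%, 5% and 10% CSE, and 0.28, 1.30 and 0.86 against the controls of 1 and 3 weeks. The control level was lower at each later week, by 0.50 from 1 to 3 weeks (not past the test, adjusted p = 0.0637) and by a further 0.98 to 5 weeks. With 5% CSE the changes over the same steps were -0.15 and 0.29.

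IFNGR2, the accessory chain of that receptor, was higher by similar amounts at all weeks. It measured 8.38, 8.38 and 8.40 in control cells at 3 weeks and 8.37, 8.42 and 8.41 at 5 weeks, so the 5-week controls did not stand apart here. The 9 differences from control lay between 0.20 and 0.48, and 8 of them passed; that at 10% CSE and 3 weeks did not (0.20, adjusted p = 0.0514). The latter passed among the 60% of clusters with the highest mean (adjusted p = 0.0341), in a fit of that week alone (0.0431) and when centred on housekeeping genes (0.41, adjusted p = 0.000155). At 5 weeks they were 0.36, 0.48 and 0.44 (adjusted p = 0.000425, 8.1e-06 and 3.15e-05) and against the controls of 1 and 3 weeks 0.34, 0.46 and 0.41. The 1-week control arrays measured 8.29, 8.46 and 8.65 and spread more. The 1-week call at 1% CSE (0.27, adjusted p = 0.0394) was lost without control replicate 1 or 2 or CSE replicate 2 or 3 (adjusted p = 0.0995 to 0.215), and that at 10% CSE (0.29, adjusted p = 0.00900) without control replicate 1 or CSE replicate 1 (0.0847 and 0.0523). In a fit of the 1-week arrays alone none of the 3 passed (adjusted p = 0.176, 0.0645 and 0.0818 at 1%, 5% and 10%).

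IFNAR1, a chain of the type I interferon receptor, measured 8.74, 8.56 and 8.34 in control cells at 1 week and 9.13, 8.94 and 9.19 with 5% CSE, without overlap. The differences at 1 week were 0.54 with 5% CSE (SE 0.15, adjusted p = 0.0127) and 0.46 with 10% CSE (adjusted p = 0.0278), and at 3 weeks 0.53 (adjusted p = 0.00908) and 0.48 (adjusted p = 0.0141). Both 3-week calls were lost without control replicate 2 (0.41, adjusted p = 0.0859, and 0.36, 0.115). The 1-week call at 5% CSE was lost without control replicate 3 or CSE replicate 1 or 3 (adjusted p = 0.0527 to 0.103), and that at 10% CSE without control replicate 2 or 3 or CSE replicate 2 or 3 (0.0579 to 0.177). At 5 weeks IFNAR1 measured 6.68, 7.23 and 7.38 in control cells, below the lowest of the other 33 arrays, 8.24. The exposed groups were therefore 1.41, 1.80 and 1.68 higher (2.66-, 3.49- and 3.21-fold; adjusted p = 2.41e-08, 7.13e-11 and 2.69e-10), but against the controls of 1 and 3 weeks the values were -0.02, 0.37 and 0.25, and only that at 5% CSE passed (adjusted p = 0.0286).

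IFNAR1 and IFNGR2 lie beside each other on chromosome 21 in RefSeq, next to IL10RB and IFNAR2 in a run of receptor genes of the same family. IFNAR2, the partner of IFNAR1, was higher than control at every concentration and week, by 0.89, 0.84 and 1.33 with 5% CSE at 1, 3 and 5 weeks (adjusted p = 8.3e-09, 1.64e-08 and 8.1e-13), and by 1.01 against the controls of 1 and 3 weeks. IL10RB, which serves IL-10 and interferon lambda and is named for its position, did not share this: its differences with 5% CSE were 0.08, -0.10 and -0.11, none past the test. LIFR and OSMR are likewise neighbours, on chromosome 5.

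IL1R1, the signalling receptor for IL-1, measured 9.03, 8.95 and 8.54 in control cells at 1 week and 9.42, 9.44 and 9.50 with 5% CSE. At 3 weeks it measured 9.21, 8.76 and 8.82 in control cells, 9.77, 9.69 and 9.94 with 5% CSE and 9.80, 9.84 and 9.72 with 10% CSE. The 5% CSE arrays lay above the controls at both weeks, by 0.61 (SE 0.15, adjusted p = 0.00570) and 0.87 (adjusted p = 7.01e-05). The former call was lost without control replicate 3 (0.46, adjusted p = 0.0746). With 10% CSE the 1-week difference was 0.24 and did not pass (adjusted p = 0.316), and the 3-week difference was 0.86 (adjusted p = 6.39e-05), the level having risen by 0.70 between these weeks (adjusted p = 0.000711). At 5 weeks the differences were 1.41, 1.86 and 1.77 (adjusted p = 3.78e-08, 6.71e-11 and 1.82e-10). Against the controls of 1 and 3 weeks they were 0.45, 0.90 and 0.80 and all passed (adjusted p = 0.0161, 4.07e-06 and 1.94e-05), whereas for OSMR, IFNAR1 and IL13RA1 at least 1 concentration did not.

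Of the rest of the IL-1 system, IL1A, IL1R2, IRAK2 and TRAF6 had differences larger in size with 5% CSE at 1 week than IL1R1 (0.61). That of TRAF6, an adaptor, was only slightly larger (0.64, adjusted p = 1.61e-06). Others had smaller ones: 0.01 for IL1B, another ligand, and -0.22 for IL1RN, the receptor antagonist (neither past the test). IL1RAP, the partner chain, which is named here for its role, also had a smaller one, 0.43 (adjusted p = 0.0409). IL1A, a ligand of IL1R1, measured between 4.90 and 5.25 in control cells at 1 week and between 6.94 and 7.16 with 5% CSE, a difference of 1.98 (adjusted p = 1.51e-14). It was 1.87 higher at 3 weeks and 1.88 at 5 weeks, and 2.12 against the other controls. IL1R2, the decoy receptor that binds IL-1 without signalling, fell by 0.89, 0.90 and 0.76 with 5% CSE at 1, 3 and 5 weeks (adjusted p = 3.39e-11, 1.45e-11 and 2.45e-10) and by 1.64, 1.52 and 1.28 with 10% CSE. IRAK2, a kinase downstream of IL1R1, rose by 1.95, 1.79 and 2.17 with 5% CSE (adjusted p = 9.87e-14, 3.23e-13 and 2.22e-15). IL1R2 is the neighbour of IL1R1 on chromosome 2 and moved the opposite way.

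IL4R, the shared chain for IL-4 and IL-13, was lower than control at every concentration and week, which held for no other member. It measured 8.84, 8.81 and 8.74 in control cells at 1 week, 8.82, 8.97 and 8.71 after 3 weeks and 8.76, 8.65 and 8.76 after 5, so the 5-week arrays did not stand apart. With 10% CSE it measured 8.12, 8.20 and 8.01 at 1 week, 8.25, 8.17 and 8.30 after 3 weeks and 8.30, 8.35 and 8.27 after 5. With 1% CSE it already measured 8.27, 8.37 and 8.47 at 1 week. Every exposed array lay below every control array of its week. At 1 week the fall was by 0.42, 0.50 and 0.69 at 1%, 5% and 10% CSE (SE 0.09, adjusted p = 0.00437, 0.000321 and 1.96e-06), at 3 weeks by 0.47, 0.71 and 0.59 (adjusted p = 0.000659, 1.16e-06 and 1.5e-05) and at 5 weeks by 0.68, 0.46 and 0.42 (adjusted p = 2e-06, 0.000130 and 0.000376). Against the controls of 1 and 3 weeks the 5-week values were -0.77, -0.55 and -0.51, and no call was lost when any 1 array was left out.

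IL13RA1, the partner of IL4R in the receptor for IL-13, was not lower than control by the test at any concentration or week. It measured 9.51, 9.60 and 9.39 in control cells at 1 week and 9.42, 9.35 and 9.32 at 3 weeks, and 9.63, 9.74 and 9.70 with 5% CSE at 3 weeks. That difference, 0.33, passed narrowly (SE 0.12, adjusted p = 0.0467) and was lost when any 1 of the 6 arrays was left out (adjusted p = 0.0609 to 0.123). At 1 week no exposed group passed, the value with 10% CSE being -0.31 (adjusted p = 0.0707). That value passed as lower under cyclic loess (-0.34, adjusted p = 0.0147), among the 60% of clusters with the highest mean (adjusted p = 0.0458) and in a fit of that week alone (0.00969). Centred on housekeeping genes, 1% and 10% CSE were higher at 3 weeks (0.34 and 0.38, adjusted p = 0.0430 and 0.0111). At 5 weeks the control arrays measured 8.25, 8.98 and 9.04, again below all others, and the differences were 0.72, 0.90 and 0.78 (adjusted p = 2.03e-05, 3.31e-07 and 2.89e-06). None of these passed against the controls of 1 and 3 weeks (0.05, 0.23 and 0.10).

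Between concentrations, 5% CSE exceeded 1% CSE in IFNGR1 by 0.73 at 1 week and 0.94 at 3 weeks (adjusted p = 0.00690 and 0.000889), with 1.02 at 5 weeks given without a test, and in IL1R1 at 1 and 3 weeks by 0.63 and 0.62 (adjusted p = 0.00619 and 0.00995). The IL1R1 calls were lost without 1% CSE replicate 2 at 1 week (0.56, adjusted p = 0.0507) and without 5% CSE replicate 3 at 3 weeks (0.55, 0.0653). LIFR and IFNAR1 passed at 3 weeks (0.51 and 0.48, adjusted p = 0.0415 and 0.0499), and neither call outlasted the loss of 1% CSE replicate 2 or 3 or 5% CSE replicate 2 or 3 (adjusted p = 0.0707 to 0.239), nor that of IFNAR1 the loss of 5% CSE replicate 1 (0.140). Members higher in this comparison came to 2 and 4 of 10 at 1 and 3 weeks and to 0 of the 8 tested at 5 weeks (5 of them with an unadjusted p under 0.05 in limma), beside 2.97%, 2.84% and 2.28% of all clusters, and none was lower (either way 6.73%, 5.51% and 3.54% of all clusters passed). The IFNGR1 calls of 1 and 3 weeks were kept when any 1 array was left out.

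Going from 5% to 10% CSE changed less. LIFR was higher at 1 week (0.65, adjusted p = 0.0122), a call lost without 10% CSE replicate 2 or 5% CSE replicate 2 or 3 (adjusted p = 0.0604 to 0.0798), and IL6R at 3 weeks (0.38, adjusted p = 0.0325), a call lost without any 1 of 5 arrays, 5% CSE replicate 1 or 2 or any 10% CSE replicate (0.0744 to 0.264). The members higher were 1 and 1 of 10 at 1 and 3 weeks and 0 of the 8 tested at 5 weeks, beside 1.09%, 0.210% and 0.426% of all clusters, and none was lower (either way 3.27%, 0.967% and 2.22% passed). At 1 week 4 of the 10 had an unadjusted p under 0.05 in limma, and 3 of the 10 differences were above 0. The means of IL1R1 and IL13RA1 were then 9.45 and 9.46 with 5% CSE and 9.08 and 9.19 with 10% CSE. At 5 weeks IL6R came nearest in limma (0.30, 95% confidence interval 0.12 to 0.49, unadjusted p = 0.00236, adjusted p = 0.0846), the only one of the 8 with an unadjusted p under 0.05. IFNGR1 and IL6ST had lower means with 10% than with 5% CSE at 5 weeks, the differences being -0.44 and -0.45. For IFNAR1 and IL1R1 the intervals, -0.42 to 0.18 and -0.40 to 0.21, leave room for a moderate difference either way.

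Between weeks the receptors changed most in control cells, from 3 to 5 weeks. From 1 to 3 weeks no member passed in control cells by limma (the smallest adjusted p was 0.0637, for IFNGR1, the 1 member with an unadjusted p under 0.05), beside 6.23% of clusters higher and 5.27% lower (11.5% either way). In exposed cells over the same step 2 members were lower with 1% CSE (IL6R and LIFR), 1 with 5% CSE (IL6R) and 3 with 10% CSE (IL6R, LIFR and OSMR, the last by 0.33), and with 10% CSE 2 were higher (IL1R1 and IL13RA1, the latter by 0.34, adjusted p = 0.0305). The share of all clusters lower was 9.84%, 8.33% and 10.2%, and that higher 11.5%, 9.68% and 14.2%. From 3 to 5 weeks 4 of the 8 tested were lower, IFNAR1 (-1.42), IL1R1 (-1.01), IL13RA1 (-0.61) and OSMR (-0.47), with -1.42 for IL6ST and -0.98 for IFNGR1 given without a test, and IL6R was higher by 0.25 (adjusted p = 0.0217), beside 21.8% lower and 31.7% higher of all clusters. The IL6R call was lost without the 3-week replicate 3 (0.18, adjusted p = 0.128) or the 5-week replicate 1 (0.23, adjusted p = 0.0733). With 5% CSE none of the 8 passed in limma between 3 and 5 weeks, beside 0.694% higher and 0.234% lower of all clusters, IFNGR2 alone having an unadjusted p under 0.05, and the values ranged from -0.14 for IFNAR1 to 0.29 for IFNGR1. With 10% CSE none passed either (beside 2.78% and 2.43%, again with IFNGR2 alone at an unadjusted p under 0.05), and with 1% CSE OSMR (-0.39, adjusted p = 0.0140) and IL4R (-0.31, adjusted p = 0.0371) were lower, beside 2.75% (3.58% were higher). Whether the low values belong to the time in culture or to this set of 3 arrays cannot be told apart, since all 5-week controls are in it. The effect of CSE differed between 5 weeks and 1 week in 3, 5 and 5 of the 8 at 1%, 5% and 10% CSE. Beside these, 10.8%, 15.1% and 13.6% of all clusters had a more positive effect at 5 weeks and 10.2%, 15.7% and 16.0% a more negative one. With the controls of 1 and 3 weeks in place of those of 5 weeks 1, 1 and 3 of the 8 differed, beside 4.19%, 5.96% and 4.99% more positive and 4.26%, 5.00% and 5.73% more negative.

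Among ligands and other parts of these pathways, drawn from lists compiled with earlier results known, the largest values lay outside the gp130 ligands. The shares of all clusters to read these counts against are those given above for 5% CSE: 5.99%, 9.70% and 23.0% higher and 4.84%, 9.93% and 40.3% lower at 1, 3 and 5 weeks, and 13.1% higher and 13.0% lower against the controls of 1 and 3 weeks. Of 8 gp130 ligands measured none passed in limma with 5% CSE at 1 week, nor had any an unadjusted p under 0.05, and at 3 weeks LIF alone was higher (0.42, adjusted p = 0.0340). At 5 weeks EBI3, a subunit of IL-27, was higher (0.29, adjusted p = 0.0267) and IL11 and CTF1 were lower (-0.57 and -0.26, adjusted p = 5.43e-05 and 0.0330), of which EBI3 alone passed against the other controls (0.42, adjusted p = 0.00156). Of 13 interferon, IL-1 and IL-4/IL-13 ligands 1, IL1A, was higher at 1 week, and at 3 weeks 3 were higher and 1 lower. Those higher were IL1A, IFNE (1.60, adjusted p = 0.00720), an epithelial type I interferon, and IL1B (0.40, adjusted p = 0.0216), and the one lower was IL28A, an interferon lambda whose probes may not tell it from its near copy IL28B (-0.35, adjusted p = 0.0242). At 5 weeks the same 3 were higher and 8 were lower, and against the other controls 3 were higher and 0 lower. IFNE was then 2.63 higher (adjusted p = 9.37e-06), or 1.16 against the other controls (adjusted p = 0.0205). It is among the genes the study itself selected on these arrays, so that rise is not independent evidence. For IL28A the difference was then -0.81 (adjusted p = 7.77e-07), or -0.25 against the other controls, not past the test. IFNE levels were scattered among the controls of 1 week, from 4.93 to 6.74. IL6 itself, named for its role after its values were seen, had differences of 0.01, -0.14 and -0.03, none past the test. Of 44 partner chains and other cytokine receptors, 5, 6 and 7 were higher and 2, 3 and 21 lower with 5% CSE at 1, 3 and 5 weeks, the last becoming 5 and 3 against the controls of 1 and 3 weeks, and the shares of all clusters at 5 weeks were 23.0% and 40.3%. IL20RB was higher than control by 0.96 at 3 weeks and 1.15 at 5 weeks (adjusted p = 2.58e-08 and 3.70e-10). Its means at 1, 3 and 5 weeks were 8.585, 7.003 and 6.606 in control cells and 8.739, 7.962 and 7.754 with 5% CSE. Both were thus lower at each later week, and the 5-week mean with 5% CSE lay between the control means of 1 and 3 weeks. IL22RA1, the IL-22 receptor, fell by 0.51 at 1 week (adjusted p = 0.00221). The medians of this list, -0.02, -0.06 and -0.21, stayed near those of all clusters, -0.03, -0.04 and -0.17.

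**Figure D3:**
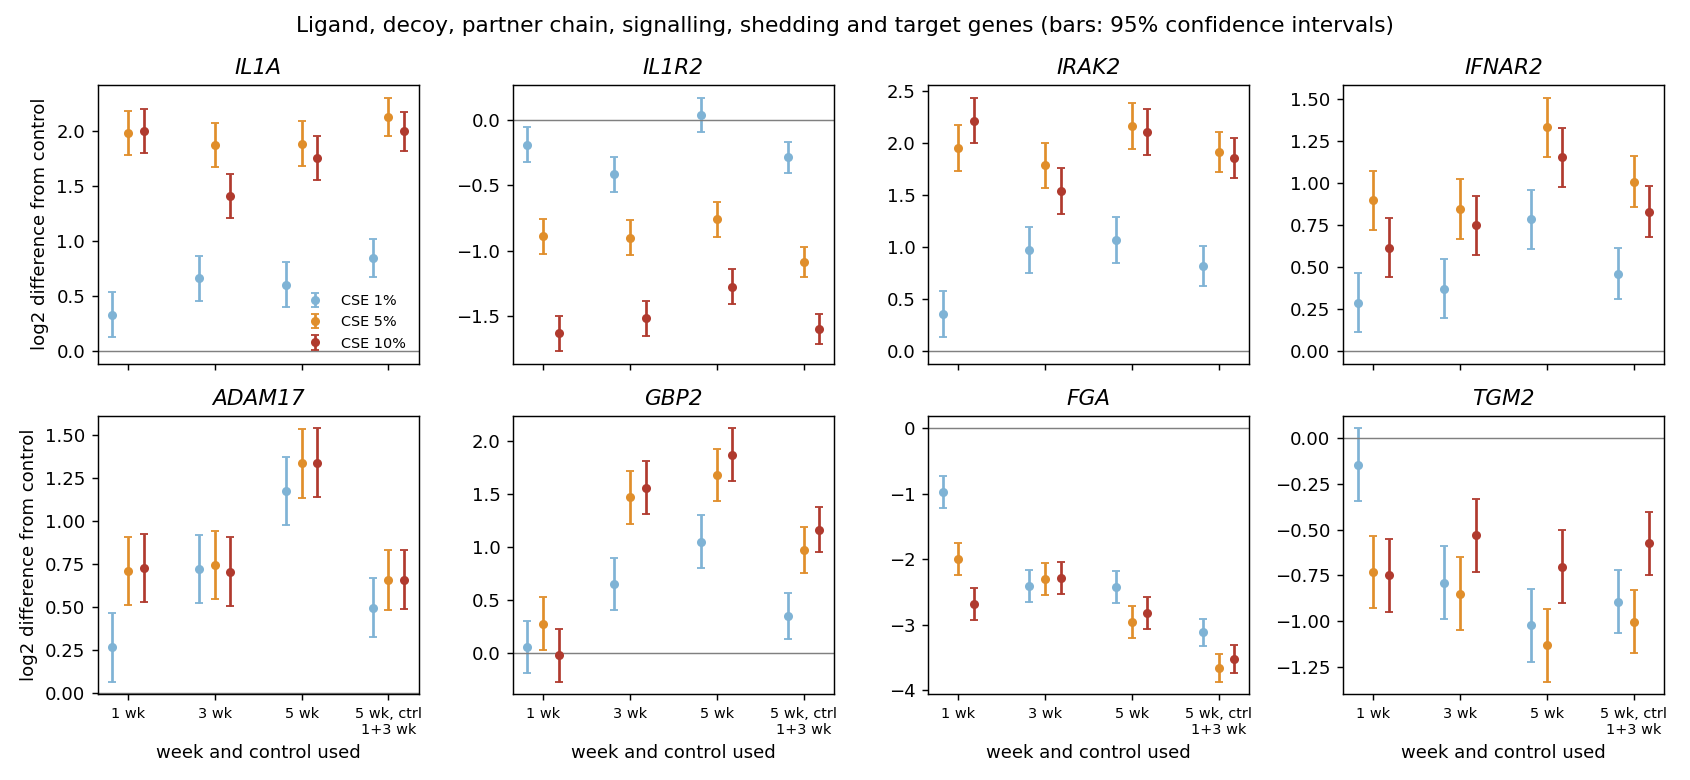
Log2 differences from control, with 95% confidence intervals, of 8 genes around the receptors at 1%, 5% and 10% CSE. The 4 positions in each panel are 1, 3 and 5 weeks against the control of the same week and 5 weeks against the controls of 1 and 3 weeks. IL1A, IRAK2, IFNAR2 and ADAM17 lie above 0 throughout and FGA lies below 0 throughout, while GBP2 is near 0 at 1 week, with values of 0.06, 0.28 and -0.02.

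Of 20 kinases, STATs and adaptors measured, 8, 10 and 11 were higher and 1, 1 and 3 lower with 5% CSE at 1, 3 and 5 weeks, or 9 and 3 at the last week against the other controls, with medians of 0.18, 0.22, 0.26 and 0.14. The shares of all clusters were 5.99%, 9.70% and 23.0% higher and 4.84%, 9.93% and 40.3% lower. STAT4, which carries IL-12 and type I interferon signals, was higher than control by 1.24, 2.08 and 2.90 (adjusted p = 2.11e-09, 1.89e-14 and 7.26e-18). Against the other controls it was 1.77 higher at 5 weeks. Its means at 1, 3 and 5 weeks were 8.969, 8.999 and 9.098 with 5% CSE and 7.733, 6.916 and 6.203 in control cells. The difference thus grew mainly as the control level became lower. STAT4 is among the genes the study itself selected on these arrays, so these differences are not independent evidence. JAK1, a kinase bound by gp130 and the interferon receptors and named after its values were seen, rose by 0.67, 0.40 and 0.87 (adjusted p = 3.66e-05, 0.00666 and 1.1e-07), the last being 0.44 against the other controls. IRS2, an adaptor of the IL-4 receptor and the insulin receptor, fell by 0.75 at 3 weeks and 0.79 at 5 weeks (adjusted p = 7.61e-08 and 1.23e-08). Of 18 feedback regulators, 2, 4 and 9 were higher and 0, 2 and 6 lower, with 4 and 3 at the last week against the other controls, among them PIAS3 (0.51, 0.58 and 0.71) and PIAS1 (0.43 at 1 and at 3 weeks), inhibitors of activated STATs, and SOCS6 (0.68 and 1.59 at 3 and 5 weeks, the latter 0.50 against the other controls). Of 6 genes of receptor trafficking and shedding, 2, 3 and 4 were higher and 0, 1 and 1 lower, with 2 and 1 against the other controls. ADAM17, the protease that releases soluble IL6R and other ectodomains, rose by 0.71, 0.74 and 1.34 with 5% CSE (adjusted p = 4.82e-06, 1.38e-06 and 1.02e-11), or by 0.65 at 5 weeks against the other controls.

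Among target genes the directions were mixed. Of 18 STAT3 and IL-6 targets, 2, 1 and 0 were higher and 4, 5 and 10 lower with 5% CSE at 1, 3 and 5 weeks, where 4.84%, 9.93% and 40.3% of all clusters were lower, and 0 and 6 against the other controls. The fibrinogen chains, acute phase proteins that IL-6 induces, were among those lower. The differences were -1.99, -2.30 and -2.96 for FGA and -2.24, -2.55 and -3.24 for FGB, both also among the genes the study selected. FGG, the third chain, fell by 1.98, 2.09 and 1.45 (or by 3.45 at 5 weeks against the other controls). In control cells without CSE the means of all 3 chains were also lower at each later week. They were 10.09, 9.13 and 8.92 for FGA, 10.56, 9.58 and 8.89 for FGB, and 8.53, 7.01 and 5.77 for FGG. FOS, a transcription factor, fell by 0.78, 0.80 and 1.52 with 5% CSE. At 1 week its mean was 8.55 in control cells, 8.75 with 1% CSE, 7.77 with 5% CSE and 8.84 with 10% CSE. Of 14 interferon gamma targets, 1, 3 and 4 were higher and 1, 1 and 5 lower, and against the controls of 1 and 3 weeks 6 were higher and 0 lower at 5 weeks. IRF1, a transcription factor of the interferon response, rose by 0.84, 0.75 and 0.73 (adjusted p = 3.6e-05, 0.000100 and 3.79e-05), and GBP2, a guanylate binding protein, by 1.47 at 3 and 1.68 at 5 weeks, the latter 0.97 against the other controls. CD274, which encodes PD-L1, fell by 0.58 at 1 week and 0.71 at 3 weeks, at low levels. Its means at these weeks were 5.22 and 5.28 in control cells and 4.64 and 4.57 with 5% CSE. CD3E, a leukocyte marker, had a mean of 5.32 over all arrays, at the 16.6th percentile of named genes. Whether the CD274 values are background signal was not tested. Of 9 IL-4 and IL-13 targets none was higher by limma, also at an unadjusted p under 0.05, and 1, 1 and 4 were lower (1 at 5 weeks against the other controls), including TGM2, a transglutaminase, at each week (by 0.73, 0.85 and 1.13; adjusted p = 2.9e-06, 1.39e-07 and 2.78e-10).

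The transcripts whose pattern over the 12 group means was most like that of each member were found by Pearson's r over all clusters with 1 symbol, as a description in which every point shares the same arrays. For IL6ST the closest was SPRED1 (r = 0.988), for IFNGR1 STEAP1 (0.987), for IFNAR1 SCAMP1 (0.991), for IL1R1 PPP1R21 (0.985), for OSMR TMC7 (0.983) and for IL13RA1 DDHD2 (0.972). The other members had looser matches: LIFR with SCAND3 (0.938), IL4R with MAP3K14-AS1 (0.947), IFNGR2 with UBE2E2 (0.930) and IL6R with RGS20 (0.911). With the remaining 11 groups STEAP1 and UBE2E2 were still the closest to IFNGR1 (0.970) and IFNGR2 (0.915), while the closest to IL6ST became HCFC2 (0.977), to IFNAR1 ZC3H12C (0.985) and to IL4R TXNDC11 (0.949).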

How the data were processed

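Transcripts of 36 A549 cultures were profiled with Affymetrix Human Gene 1.0 ST arrays. Per the labels, the authors summarised the deposited log2 values with RMA, and the submitters' processing notes name R 2.11.0 and limma; the build behind the array annotation is not named in them. Groups of 3 were taken from the sample titles.

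The log2 values were used as deposited. In R 4.3.3 with limma 3.58.1, 1 linear model with a mean per group was fitted to all 33297 transcript clusters (24 residual degrees of freedom), and p-values were adjusted by Benjamini-Hochberg over all clusters of a comparison. Tests were two-sided and called at an adjusted p under 0.05. The number of arrays limits the precision. In a simulation of the 1-week comparison of 5% CSE with control over 33297 clusters, tested on simulated data, the model found 28% of 50 clusters changed by 0.4, 80% of those changed by 0.8, 88% of those changed by -0.8 and 96% of those changed by 1.5, and called 0.0181% of unchanged clusters. Only these sets of 50 were changed, a far smaller share than the 5.99% higher and 4.84% lower called in the real comparison. The adjustment depends on that share, so these percentages do not give the recovery in the real comparison.

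The members and all lists were chosen with earlier results of these data known, and adjusted p-values describe single genes, not the set. IL6ST and IFNGR1 stand among the genes the study selected at 5 weeks, so comparisons that use their 5-week arrays carry no p and enter no count of calls. Named genes were all 10 members, in each pathway list up to 3 with the smallest p for 5% CSE at each week, and up to 3 per member most alike in pattern; genes named otherwise are marked as such. The lists covered gp130 ligands, other ligands, partner chains and other receptors, kinases with STATs and adaptors, feedback regulators, trafficking and shedding, and targets of STAT3, interferon gamma and IL-4/IL-13, besides cell type markers. Alternatives were another scaling (cyclic loess, or centring on housekeeping genes), a filter on dim clusters, a replicate block, a fit of each week alone, other controls, a fold change rule and leaving out each array.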

Additional observations from a re-analysis of the deposited data

Results flagged for a closer look

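The difference between the effect of CSE at 5 weeks and its effect at 1 week, each against the control of the same week, was tested in limma as an interaction for 8 members and 3 concentrations, IL6ST and IFNGR1 being left out because the study selected them on the arrays of 5 weeks. It passed for 13 of 24. Of these, 11 were positive, and 2 of the 11 were also called with the controls of 1 and 3 weeks in place of the 5-week controls that stood apart.

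For IFNAR1 with 1% CSE the difference was 1.27, adjusted p = 9.77e-05, and -0.17, adjusted p = 0.603 with the controls of 1 and 3 weeks. For IL1R1 with 1% CSE the difference was 1.43, adjusted p = 2.98e-05, and 0.47, adjusted p = 0.0819 with the controls of 1 and 3 weeks. For IL13RA1 with 1% CSE the difference was 0.70, adjusted p = 0.00385, and 0.03, adjusted p = 0.936 with the controls of 1 and 3 weeks.

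For IL6R with 5% CSE the difference was -0.60, adjusted p = 0.00122, and -0.42, adjusted p = 0.00649 with the controls of 1 and 3 weeks. For OSMR with 5% CSE the difference was 0.41, adjusted p = 0.0257, and -0.09, adjusted p = 0.679 with the controls of 1 and 3 weeks. For IFNAR1 with 5% CSE the difference was 1.26, adjusted p = 7.61e-05, and -0.17, adjusted p = 0.598 with the controls of 1 and 3 weeks. For IL1R1 with 5% CSE the difference was 1.25, adjusted p = 0.000121, and 0.28, adjusted p = 0.324 with the controls of 1 and 3 weeks. For IL13RA1 with 5% CSE the difference was 0.94, adjusted p = 0.00017, and 0.27, adjusted p = 0.206 with the controls of 1 and 3 weeks.

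For IL6R with 10% CSE the difference was -0.60, adjusted p = 0.00104, and -0.42, adjusted p = 0.00599 with the controls of 1 and 3 weeks. For OSMR with 10% CSE the difference was 0.38, adjusted p = 0.0383, and -0.13, adjusted p = 0.561 with the controls of 1 and 3 weeks. For IFNAR1 with 10% CSE the difference was 1.23, adjusted p = 7.58e-05, and -0.21, adjusted p = 0.501 with the controls of 1 and 3 weeks. For IL1R1 with 10% CSE the difference was 1.53, adjusted p = 6.09e-06, and 0.56, adjusted p = 0.0268 with the controls of 1 and 3 weeks. For IL13RA1 with 10% CSE the difference was 1.08, adjusted p = 2.16e-05, and 0.41, adjusted p = 0.0394 with the controls of 1 and 3 weeks. With the controls of 1 and 3 weeks the calls left were IL6R with 5% and 10% CSE, both negative, and IL1R1 and IL13RA1 with 10% CSE.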

How the results depend on the processing

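IL6ST and IFNGR1 are left out of counts that use arrays of 5 weeks. IL4R was lower than control at all concentrations and weeks under every alternative with the same call rule. Against the controls of 1 and 3 weeks the members higher with 1% CSE at 5 weeks came to 2 and those lower with 5% CSE to 1, the members whose 5-week and 1-week effects differed came to 1, 1 and 3 at 1%, 5% and 10%, and some values turned: OSMR and IFNAR1 with 1% CSE at 5 weeks became -0.048 and -0.023, and the difference between the 5-week and 1-week effects became -0.17 for IFNAR1 with 1% CSE, -0.094 for OSMR and -0.17 for IFNAR1 with 5% CSE, and -0.094 for IL6ST, -0.13 for OSMR and -0.21 for IFNAR1 with 10% CSE. Under cyclic loess the members higher with 1% CSE at 1 week came to 0, those lower with 10% CSE at 1 week to 2, those called between 10% and 5% CSE to 2 at 1 week and 1 at 5 weeks, between 5% and 1% CSE at 5 weeks to 1, and between the controls of 3 and 1 weeks to 1. Centred on 18 housekeeping genes, members lower with 5% CSE at 5 weeks came to 1, those called between 5% and 1% CSE at 5 weeks to 1, between 10% and 5% CSE at 5 weeks to 1, and between the controls of 3 and 1 weeks to 1. These scalings moved the median of all clusters: at 5 weeks from -0.14, -0.17 and -0.17 to -0.01, -0.03 and -0.03 with cyclic loess, and at 3 weeks from -0.00, -0.04 and 0.01 to 0.15, 0.14 and 0.22 with housekeeping genes. With only the 60% of clusters with the highest mean, which leaves out LIFR, members lower with 10% CSE at 1 week came to 2 and those called between the controls of 3 and 1 weeks to 1. In a fit of each week alone, members higher with 1% CSE at 1 week came to 0, lower with 10% CSE at 1 week to 2 and lower with 5% CSE at 5 weeks to 1. With the study's kind of rule, a log2 change beyond 1 with B above 0, members higher came to 0 for all concentrations of 1 week, to 0, 1 and 1 for those of 3 weeks and to 2 for all of 5 weeks, and members lower to 0 throughout. The cause of these changes was not tested.

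Of 27 same-numbered pairs of a CSE and a control array, 6 had deviations that correlated above 0.1 (range -0.21 to 0.50, median 0.02), 5 of them among the 9 pairs with 1% CSE, including all 3 at 5 weeks (0.10 to 0.32). Since most pairs fell short and the labels name no shared culture or day, the numbers were not taken to pair the samples. With the replicate block members called between 5% and 1% CSE at 5 weeks came to 1, and the calls of IL13RA1 with 5% CSE at 3 weeks (0.33, adjusted p = 0.0555) and of IFNAR1 between 5% and 1% CSE at 3 weeks (0.48, adjusted p = 0.0628) were lost in limma. Leaving out 1 array gave members higher of 0 to 1, 3 to 7 and 5 to 6 with 1%, 5% and 10% CSE at 1 week. At 3 weeks the members higher were 1 to 3, 4 to 6 and 4 to 6 in the same order. Members lower were 1 to 2 with 5% CSE at 5 weeks. Members called between 5% and 1% CSE were 1 to 2, 1 to 4 and 0 to 1 at 1, 3 and 5 weeks, and between 10% and 5% CSE 0 to 2 and 0 to 1 at 1 and 3 weeks. Of the 1736 values computed in all, 20 changed sign without passing the test before or after. Each member has 1 cluster, so averaging clusters gave the same values.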
